A study of Mus musculus with 6 samples.

Results

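The cytosolic ribosomal protein genes were taken as every protein-coding mouse gene of the GENCODE M21 annotation whose symbol names a large subunit (Rpl) or small subunit (Rps) ribosomal protein, without the Rps6k kinases. The naming rule gave 92 of the 54886 genes listed, 57 with a large subunit symbol and 35 with a small subunit symbol, and every one is listed in the files of all 6 libraries. The libraries were made from total RNA of GC-2spd cells, an immortalised line derived from mouse spermatocytes that the labels describe as BALB/c. The 3 control libraries came from cells in normal culture medium (the study's methods also name PBS), and the 3 PM2.5 libraries came from cells exposed to fine particulate matter, according to the methods a standard reference material, at 100 μg/mL for 48 h. Both groups are 1 cell line from 1 supplier. Nothing in the labels says that the libraries of a group came from separate cultures, so the p-values measure only the spread between these libraries.

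The ribosome is built from ribosomal RNA and one copy of most of these proteins, with the small subunit decoding the mRNA and the large subunit joining the amino acids. Mammalian genomes hold few expressed genes and very many processed pseudogenes for each protein. The mRNAs of the family begin with a C followed by a run of pyrimidines, the 5′ terminal oligopyrimidine (TOP) motif, through which mTORC1 and LARP1 control their translation. Several members have uses outside the ribosome, among them Rpl5 and Rpl11, which bind MDM2 when ribosome assembly is disturbed.

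Depth was 16203632 to 17997164 reads per library, recovered from the deposited FPKM (fragments counted on a gene, scaled for exon length and library depth). Control replicate 2 stood apart from the other 5 libraries, with 14.5% of its reads on the mitochondrial chromosome against 1.65% to 1.95%. Markers of the labelled cell type were mostly absent, as 1 of 12 meiotic spermatocyte markers reached 1 FPKM in any library (Sycp3, highest at 2.56 FPKM in control replicate 2), and 0 of 5 spermatid markers did. Of 7 peritubular and fibroblast markers, 6 reached 1 FPKM, with a summed level of 721 to 1458 FPKM. Of 5 Sertoli markers 2 reached it, and of 5 Leydig markers 1 did. Over the members, PM2.5 replicate 3 had a median absolute log2 difference of 0.34 and 0.26 from control replicates 1 and 3, and of 0.43 and 0.39 from PM2.5 replicates 1 and 2, so it lay nearer to those controls than to its own group. The labels do not say that either library was prepared differently, and whether a library had been exchanged was not tested, which limits every comparison of PM2.5 with control below. Values without control replicate 2 are given beside those of all 6 libraries.

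Ribosomal protein mRNAs took 7.05%, 11.7% and 7.28% of all FPKM in control replicates 1, 2 and 3, and 7.79%, 7.59% and 8.18% in PM2.5 replicates 1, 2 and 3. All PM2.5 libraries lay above control replicates 1 and 3 and below control replicate 2. The mean of the controls was 8.69% ± 2.64 (SD, n = 3), and 7.17% ± 0.163 (SD, n = 2) without replicate 2, against 7.85% ± 0.300 (SD, n = 3) after PM2.5. Among genes outside the mitochondrial chromosome the shares were 7.43%, 16.1% and 7.69% in control replicates 1, 2 and 3. They were 8.18%, 8.03% and 8.69% in PM2.5 replicates 1, 2 and 3. In bulk RNA, a shift in the mix of cells and a change of RNA per cell cannot be told apart. The median level of the 86 members with a mean of at least 1 FPKM was 154, 614 and 157 FPKM in the controls and 192, 187 and 197 FPKM after PM2.5. The lower quartile was 65.3 to 89.2 FPKM outside control replicate 2, where it was 231 FPKM.

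**Figure D1:**
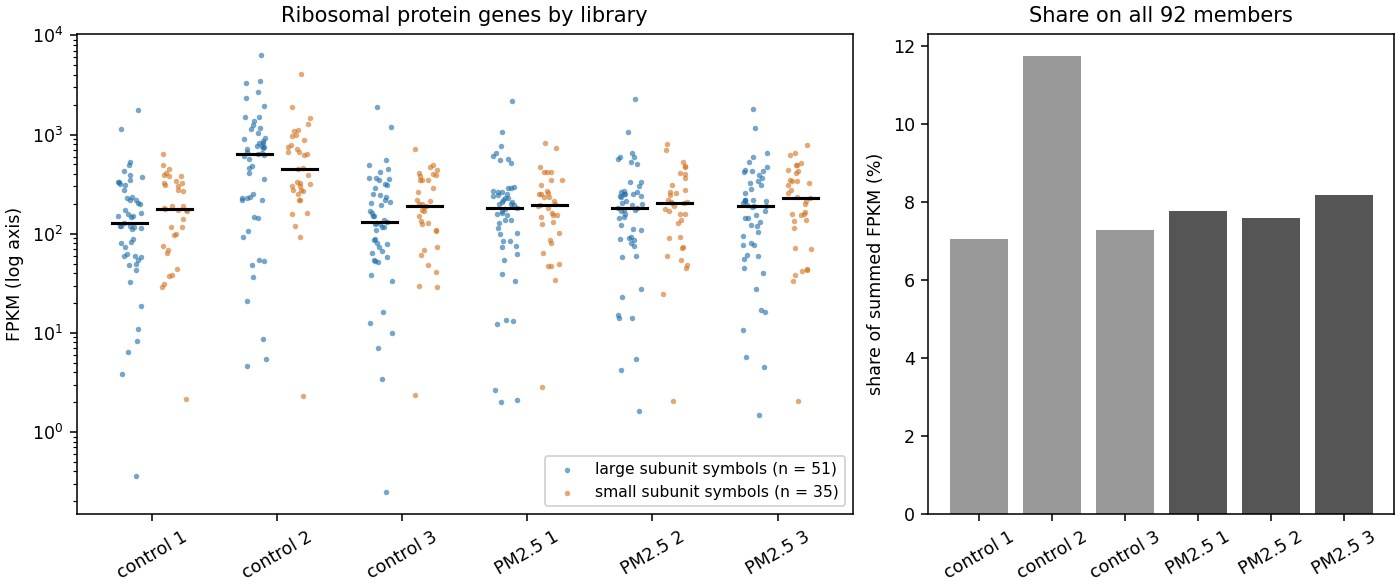
FPKM of 86 ribosomal protein genes in each library on a log axis (left, 1 point a gene, bars for medians, large subunit in blue and small subunit in orange), and the share of summed FPKM of all 92 genes in percent (right, 1 bar a library). Control replicate 2 stands above the other libraries in both panels, at a share of 11.7% against 7.05% to 8.18%.

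Outside control replicate 2, Rplp1 and Rplp0 were the most abundant members. Rplp1, which with Rplp2 forms the stalk that recruits elongation factors, had 1773, 2699 and 1896 FPKM in the controls and 2157, 2275 and 1792 FPKM after PM2.5. Rplp0, the base of that stalk, had 1144, 1169 and 1188 FPKM in the controls and 1056, 1061 and 1150 FPKM after PM2.5. Rplp2 lay far below both, at 118 to 154 FPKM outside control replicate 2, where it had 249 FPKM. The groups overlapped for all 3 stalk genes, and Rplp0 was the steadiest of them, with control replicate 2 at 1.00 times the mean of the other controls. In the small subunit, Rps2 had the highest level outside control replicate 2, at 638 to 829 FPKM, and Rpsa, the laminin receptor precursor, had 413 to 515 FPKM. At the low end, Rps10 was at 2.06 to 2.83 FPKM and Rpl24 at 2.01 to 5.39 FPKM, far below the family median.

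Reads of a ribosomal protein gene can also fit its pseudogenes. Over the members, a median of 27.8% of the 31-base sequences of a gene occurred in other genes, from 0 to 100%, with 14 members over 50% and 13 under 10%. The annotation held 292 pseudogenes that shared at least 50% of their 31-base sequences with 1 of 70 members. Those pseudogenes carried 8.07% to 8.45% of the reads counted on both together, with no separation of the groups. For Rps10 the pseudogenes carried 94.2% to 99.2% of those reads, so its low level and the levels of Rpl24, Rpl35, Rpl23a, Rps27rt and Rps12-ps3, of whose 31-base sequences 52.7% to 100% occurred elsewhere, are uncertain. The same holds for Rpl36 (94.05%), Rps3a1 (76.9%), Rplp1 (75.05%) and Rpl19 (58.85%).

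Control replicate 2 had the highest value of the 6 libraries for 70 of the 86 members, against 39.3% of all 11884 genes tested. It exceeded the mean of control replicates 1 and 3 more than 2-fold for 58 members, against 23.3% of all genes tested. Rpl21 was the extreme case, with 8.32 and 12.7 FPKM in control replicates 1 and 3, 726 FPKM in control replicate 2, and 38.9, 22.8 and 17.2 FPKM after PM2.5. Of the reads counted on Rpl21 and its pseudogenes together, the pseudogenes carried 63%, 16.7% and 48.85% in control replicates 1, 2 and 3. The size of this contrast is thus uncertain. Rpl36 had 314 and 308 FPKM in control replicates 1 and 3 and 6285 FPKM in control replicate 2, 20.2 times their mean. Rpl38, a large subunit protein known from a mouse skeletal patterning mutant, had 151 and 136 FPKM in control replicates 1 and 3 and 3314 FPKM in control replicate 2. Control replicate 2 was the lowest of the 6 libraries for 5 members, against 43.6% of all genes tested, and lay below 0.5 times the mean of the other controls for 2, against 26.2%. Rpl4 was 1 of these, at 491 and 497 FPKM in control replicates 1 and 3 and 234 FPKM in control replicate 2. The higher level was thus spread over most members and both subunits, with 35 large and 23 small subunit members above 2-fold. FPKM summed over all genes was 579133 in control replicate 2 and 261945 to 282798 in the other libraries. The fold values of control replicate 2 thus stand on a larger total, whose part in them was not tested. In the third of the members with the lowest GC content of the coding sequence the median ratio of control replicate 2 to the other controls was 2.24, and in the third with the highest it was 3.88. The part of GC content in this difference was not tested.

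With all 6 libraries, 0 of the 86 members differed between PM2.5 and control at an adjusted p under 0.05 (limma on log2(FPKM + 1), Benjamini-Hochberg over all genes tested), against 0.0926% of all genes tested. At an unadjusted p under 0.05 there was 1 member, against 3.8% of all genes, and it was lower after PM2.5 (1.88% of all genes), and voom on the recovered reads also called 0 members. The median log2 fold change of the members was -0.34, with 17 of 86 above 0, against a median of 0.02 and 51.9% above 0 over all genes tested. This median was -0.02 after quantile normalization, and -0.65 and -0.63 without control replicate 1 or 3. The standard error behind a member was large, with a median of 0.53.

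Rpl9-ps6, the single member past that unadjusted threshold, is annotated as protein coding although its symbol marks a pseudogene of Rpl9. Its levels were 43.2, 48.6 and 38.4 FPKM in the controls and 13.6, 15.01 and 27.5 FPKM after PM2.5, so that the groups did not overlap. Its log2 fold change was -1.23 ± 0.31 (SE), with a limma adjusted p of 0.679, and 92.7% of its 31-base sequences occurred in other genes. Rpl9, its parent gene, had 121, 144 and 126 FPKM in the controls and 113, 112 and 153 FPKM after PM2.5, with overlapping groups. Over all 6 libraries, the groups did not overlap for 5 members, Rpl4, Rpl7l1 and Rps3a1 with PM2.5 higher (8.35% of all genes tested) and Rpl37a and Rpl9-ps6 with PM2.5 lower (6.85%).

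Without control replicate 2, again 0 of the 86 members were called at an adjusted p under 0.05, against 1.03% of the 11597 genes tested. At an unadjusted p under 0.05 there were 27 members, against 16% of all genes tested. Of these, 25 had a higher level after PM2.5 and 2 a lower one, against 8.32% and 7.67% of all genes tested. The median log2 fold change was 0.15, with 64 of 86 members above 0, against -0.01 and 48% over all genes tested. After a correction for GC content and length of the coding sequence, added after seeing the data, 11 members were called, against 7.55% of all genes. Of these, 9 were higher after PM2.5 (3.85% of all genes), among them Rpl11, Rpl19 and Rpl23, and 2 were lower (Rpl9-ps6 and Rps19; 3.71%). With this correction and the replicate number as a block together, 0 members were called and 16 passed an unadjusted p under 0.05. The shares over all genes in that fit are not given, so these counts cannot be set against them. The sign of the family median turned with this 1 control library, from -0.34 to 0.15. The PM2.5 libraries all lay above both remaining controls for 34 members, against 17.8% of all genes tested, and below both for 3 members (Rpl10-ps3, Rpl37a and Rpl9-ps6), against 19.8%.

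**Figure D2:**
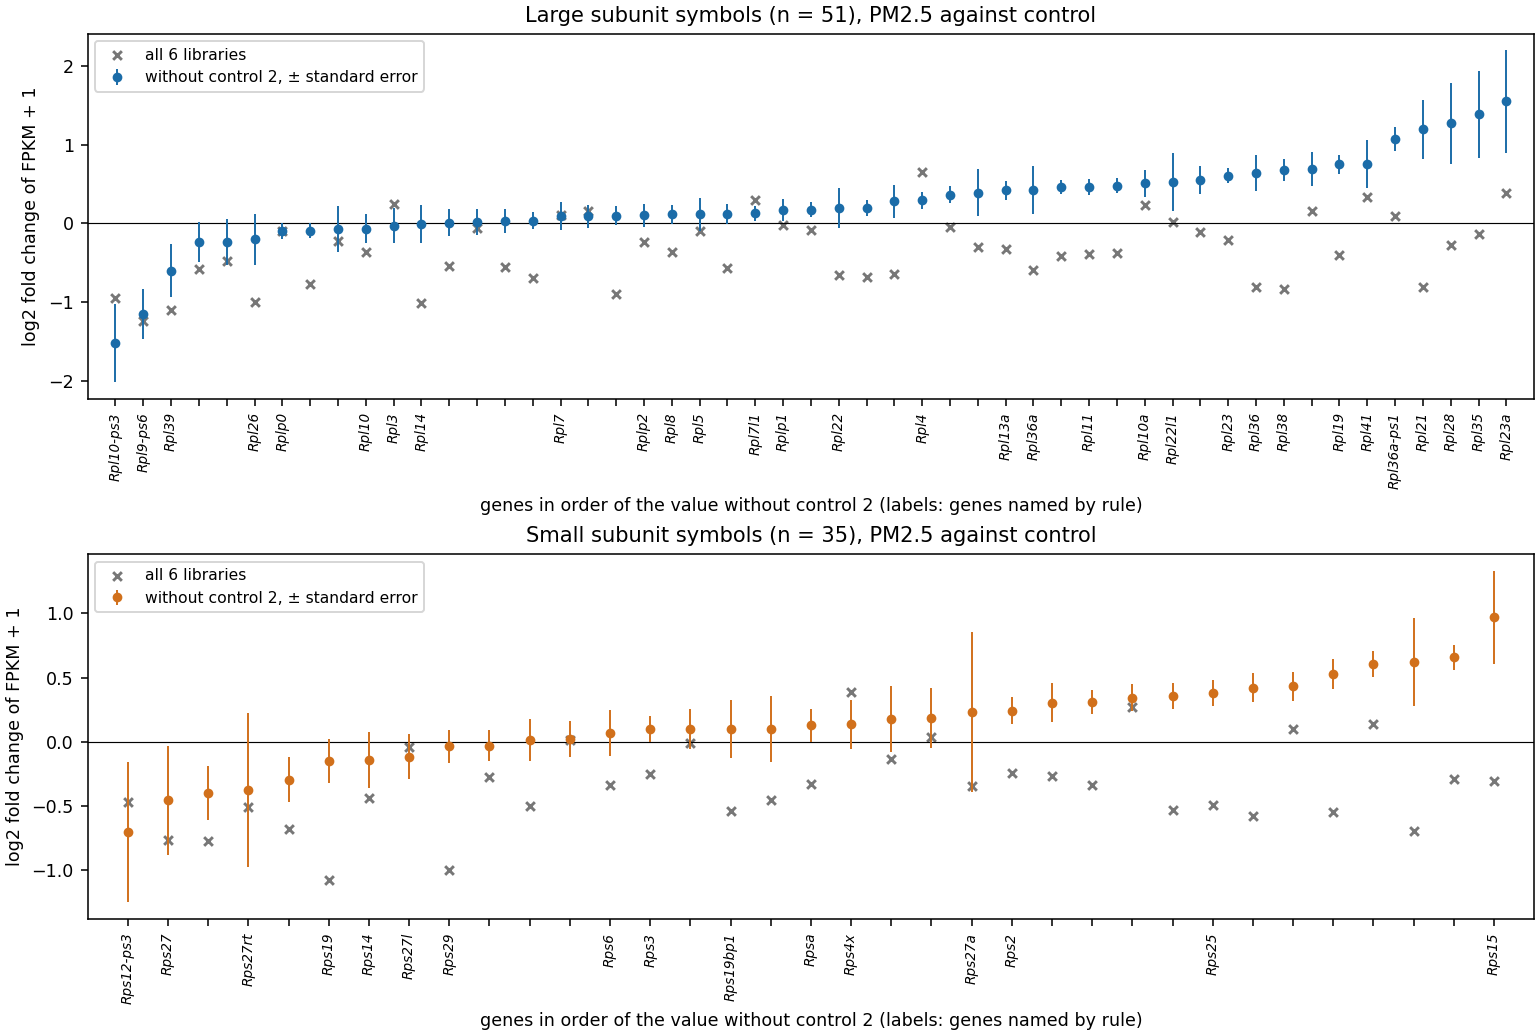
Log2 fold change of FPKM + 1, PM2.5 against control, for 51 large (top) and 35 small (bottom) subunit genes, ordered by the value without control replicate 2 (points, with standard errors), with labels for the genes named by rule. Crosses give the value with all 6 libraries, which lies below the point for most members, and the family median goes from 0.15 to -0.34.

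Rps24, Rpl23, Rpl19 and Rpl36a-ps1 were among the members with the smallest adjusted p in this fit. Rps24, a small subunit protein mutated in some cases of Diamond-Blackfan anaemia, had 29.1 and 28.9 FPKM in control replicates 1 and 3 and 47.7, 48.7 and 43.1 FPKM after PM2.5. All PM2.5 libraries lay above both controls, by 0.66 ± 0.10 (SE) on the log2 scale, with a limma adjusted p of 0.0629. Control replicate 2 had 217 FPKM, and with all 6 libraries the log2 fold change was -0.29 ± 0.79 (SE). Rpl23, a large subunit protein that binds MDM2, had 119 and 116 FPKM in control replicates 1 and 3 and 182, 170 and 186 FPKM after PM2.5.
Its log2 fold change was 0.61 ± 0.10 (SE), with a limma adjusted p of 0.0747, and control replicate 2 had 638 FPKM, which turned it to -0.20 ± 0.69 (SE) with all 6 libraries. Voom on the recovered reads called both Rps24 and Rpl23, and no other member, against 1.36% of all genes it tested. Rpl19, a large subunit protein often used as a reference gene, had 306 and 319 FPKM in control replicates 1 and 3 and 551, 567 and 469 FPKM after PM2.5, with control replicate 2 at 3474 FPKM. Its limma adjusted p was 0.0806 at a log2 fold change of 0.75 ± 0.12 (SE), against -0.41 ± 0.97 (SE) with all 6 libraries. Rpl36a-ps1 had the smallest adjusted p, 0.0593, at a log2 fold change of 1.07 ± 0.15 (SE), but its levels rested on few reads, and 75.9% of its 31-base sequences occurred in other genes. It had 3 and 2 reads in control replicates 1 and 3, 51 in control replicate 2, and 17, 13 and 12 after PM2.5.

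Without control replicate 2, several of the largest fold changes rested on PM2.5 replicates 1 and 2. Rpl23a had 61.9 and 73.6 FPKM in control replicates 1 and 3, 291 and 335 FPKM in PM2.5 replicates 1 and 2, and 80.7 FPKM in PM2.5 replicate 3. Rpl35 followed the same order, with 58.7 and 66.9 FPKM in control replicates 1 and 3, 246 and 239 FPKM in PM2.5 replicates 1 and 2, and 76.8 FPKM in PM2.5 replicate 3. Rpl28 had 48.3 and 51.5 FPKM in control replicates 1 and 3, 177 and 172 FPKM in PM2.5 replicates 1 and 2, and 59.4 FPKM in PM2.5 replicate 3. For these 3 large subunit genes PM2.5 replicate 3 lay just above control replicates 1 and 3, and the log2 fold changes of 1.55 ± 0.65, 1.39 ± 0.55 and 1.27 ± 0.51 (SE) came with limma adjusted p of 0.341, 0.320 and 0.325. Control replicate 2 lay above all PM2.5 libraries in these genes, at 760.3 FPKM for Rpl23a, 1497 FPKM for Rpl35 and 1259 FPKM for Rpl28. With all 6 libraries the log2 fold changes of Rpl23a, Rpl35 and Rpl28 were 0.39 ± 1.10, -0.13 ± 1.33 and -0.27 ± 1.33 (SE). Rps15, a small subunit protein needed for export of its subunit from the nucleus, had 277 and 289 FPKM in control replicates 1 and 3, 729 and 691 FPKM in PM2.5 replicates 1 and 2, and 339 FPKM in PM2.5 replicate 3. Control replicate 2 had 4041 FPKM of Rps15, and the log2 fold change of the gene went from 0.97 ± 0.36 (SE) to -0.31 ± 1.11 (SE) when that library was included. Rpl41, the shortest ribosomal protein, had 336 and 350 FPKM in control replicates 1 and 3 and 759, 655 and 390 FPKM after PM2.5, with control replicate 2 at 824 FPKM.

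Rpl39 and Rps27 had the mirrored order. Rpl39, whose protein lines the exit tunnel of the large subunit, had 391 and 419 FPKM in control replicates 1 and 3, 211 and 214 FPKM in PM2.5 replicates 1 and 2, and 420.1 FPKM in PM2.5 replicate 3. Rps27, a small subunit protein with a zinc finger, had 303 and 404 FPKM in control replicates 1 and 3, 180 and 207 FPKM in PM2.5 replicates 1 and 2, and 444 FPKM in PM2.5 replicate 3. In both, PM2.5 replicate 3 had the highest level of these 5 libraries, and control replicate 2 lay above all of them, at 1139 FPKM for Rpl39 and 662 FPKM for Rps27. With all 6 libraries the log2 fold change of Rpl39 was -1.10 ± 0.54 (SE) and that of Rps27 was -0.76 ± 0.48 (SE). PM2.5 replicates 1 and 2 both lay above the range of control replicates 1 and 3 and PM2.5 replicate 3 for 27 members, against 28.8% of all genes tested, and below it for 21, against 31.9%. PM2.5 replicate 3 had the highest of the 5 values for 11 members (21.1% of all genes) and the lowest for 8 (19.5%). It was nearer to control replicates 1 and 3 than to the other PM2.5 libraries for 55 of the 86 members, which is 64.0% of them, against 64.5% of all genes tested.

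**Figure D3:**
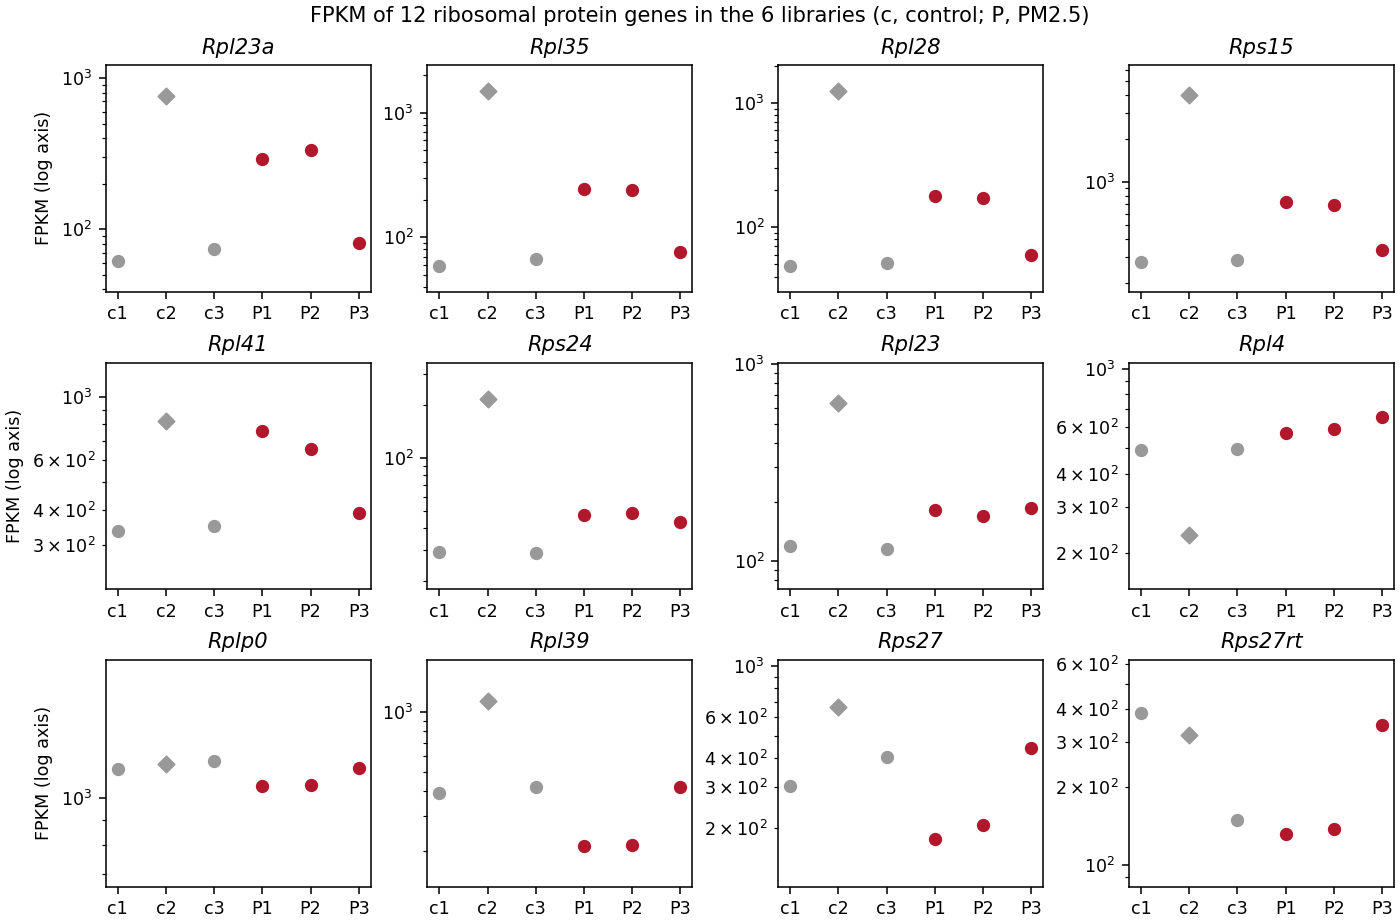
FPKM of 12 ribosomal protein genes in the 6 libraries on log axes with a range of their own (grey, control, with replicate 2 as a diamond; red, PM2.5). Rpl23a, Rpl35, Rpl28, Rps15 and Rpl41 are high in PM2.5 replicates 1 and 2, with PM2.5 replicate 3 close to control replicates 1 and 3 (for Rpl23a 80.7 against 61.9 and 73.6 FPKM), and Rps24, Rpl23 and Rpl4 have all PM2.5 libraries above both of these controls.

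When PM2.5 replicate 3 was left out together with control replicate 2, 52 of the 86 members were called at a limma adjusted p under 0.05, 38 higher and 14 lower after PM2.5, against 24% and 24.1% of the 11624 genes tested. These 4 libraries leave 2 in each group, and 48.1% of all genes were then called. Among the called members were Rpl23a at a log2 fold change of 2.19 ± 0.11 (SE), Rpl35 at 1.94 ± 0.07 (SE) and Rpl28 at 1.78 ± 0.05 (SE). Rpl39 was called at -0.93 ± 0.05 (SE), Rps27 at -0.86 ± 0.16 (SE) and Rpl9-ps6 at -1.45 ± 0.08 (SE). The counts of called members thus went from 0 to 52 with this 1 PM2.5 library. Leaving it out was chosen after its values were seen to lie nearer to the controls. The added calls are thus no further support for these fold changes.

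The large and the small subunit were compared in each library. Without control replicate 2 the median log2 fold change was 0.17 over 51 large subunit members and 0.13 over 35 small subunit members, a difference of 0.05. With all 6 libraries the medians were -0.36 and -0.34. The summed FPKM of large over small subunit genes was 1.46, 1.90 and 1.44 in the controls and 1.62, 1.61 and 1.40 after PM2.5, so that the groups overlapped with and without control replicate 2. The median log2 level of the large minus that of the small subunit members was -0.48, 0.49 and -0.53 in control replicates 1, 2 and 3 and -0.09, -0.18 and -0.30 in PM2.5 replicates 1, 2 and 3. On this measure all PM2.5 libraries lay above control replicates 1 and 3 and below control replicate 2. Of the 25 members with a higher level at an unadjusted p under 0.05 without control replicate 2, 15 belonged to the large and 10 to the small subunit.

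By role, the members that bind MDM2 or act at the nucleolus were uneven. Rpl11 had 114 and 108 FPKM in control replicates 1 and 3 and 158, 157 and 144 FPKM after PM2.5, with no overlap and a limma adjusted p of 0.125. Control replicate 2 had 659 FPKM of Rpl11, and with all 6 libraries the groups overlapped and the log2 fold change went from 0.46 ± 0.10 (SE) to -0.39 ± 0.72 (SE). Rpl5, its partner in the 5S RNA particle, had 151 and 150 FPKM in control replicates 1 and 3 and 136, 149 and 212 FPKM after PM2.5, with overlap, and control replicate 2 had 231 FPKM. Rpl26, which binds the p53 mRNA, had 433 and 451 FPKM in control replicates 1 and 3 and 289, 331 and 593 FPKM after PM2.5, with control replicate 2 at 2310 FPKM. Its log2 fold change was -0.20 ± 0.33 (SE) without that library and -0.9957 ± 0.74 (SE) with it. Of the 6 genes listed for the MDM2 and p53 branch, 0 passed an unadjusted p under 0.05 in either fit, against 16% of all genes without control replicate 2 and 3.8% with it. Trp53 itself had 1306, 405 and 1371 FPKM in the controls and 1205, 1172 and 1035 FPKM after PM2.5.

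Rps6, the substrate of S6 kinase, had 382, 883 and 382 FPKM in the controls and 351, 367 and 497 FPKM after PM2.5. Rps3, which also acts in base excision repair, had 118, 254 and 128 FPKM in the controls and 126, 129 and 139 FPKM after PM2.5. Rps19, the protein most often mutated in Diamond-Blackfan anaemia, had 44.3, 321 and 47.8 FPKM in the controls and 47.3, 44.8 and 33.5 FPKM after PM2.5. The groups overlapped for these 3 small subunit genes with and without control replicate 2. Rpl10a, a large subunit protein linked to the translation of selected mRNAs, had 118 and 131 FPKM in control replicates 1 and 3 and 198, 195 and 145 FPKM after PM2.5, and control replicate 2 had 220 FPKM. Rps25, needed for translation from some viral internal entry sites, had 117 and 125 FPKM in control replicates 1 and 3 and 149, 167 and 157 FPKM after PM2.5, with control replicate 2 at 742 FPKM. For both, the PM2.5 libraries lay above control replicates 1 and 3, with limma adjusted p of 0.262 and 0.189.

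Rps27a, made as a fusion with ubiquitin, was uneven within both groups, with 75.4 and 184 FPKM in control replicates 1 and 3 and 237, 71.3 and 157 FPKM after PM2.5, and control replicate 2 had 394 FPKM. Its standard error without control replicate 2 was 0.62 on the log2 scale. Rpl22, which has a paralogue in Rpl22l1, had 74.2 and 80.3 FPKM in control replicates 1 and 3 and 75.6, 74.4 and 123 FPKM after PM2.5, with control replicate 2 at 457 FPKM. Rpl22l1 had 6.34 and 6.97 FPKM in control replicates 1 and 3 and 12.3, 13.97 and 5.73 FPKM after PM2.5, with control replicate 2 at 20.9 FPKM.

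Several paralogues and members with -ps symbols were at or near 0. Rpl10l and Rpl39l, both known from the male germ line, were listed at 0 in all 6 libraries, which at 3 reads allows up to 0.226 and 0.278 FPKM in the shallowest library, for counting error only. Rpl36-ps4 was also at 0 throughout, Rpl9-ps1 was at 0 except for 0.0972 FPKM in PM2.5 replicate 1, and Rpl3l, a muscle paralogue, was at 0 except for 0.235 FPKM in control replicate 2. Rpl36al stayed under the filter, at 0.492 to 1.88 FPKM. Rpl7l1, a nucleolar relative of Rpl7, had 53.7, 36.7 and 52.5 FPKM in the controls and 54.1, 60.0 and 60.7 FPKM after PM2.5. The latter all lay above the controls, the lowest only just above control replicate 1. Its log2 fold change was 0.30 ± 0.23 (SE) with all 6 libraries and 0.13 ± 0.10 (SE) without control replicate 2. Rps27l, a p53 target and relative of Rps27, had 180, 162 and 199 FPKM in the controls and 156, 158 and 215 FPKM after PM2.5. Rps19bp1 carries a matching symbol but encodes a binding partner of Rps19 and not a ribosomal protein. It had 31.4, 119 and 29.9 FPKM in the controls and 33.8, 24.9 and 42.2 FPKM after PM2.5.

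Of ribosomal proteins outside the naming rule, Fau, the source of a small subunit protein, had 507, 1316 and 541 FPKM in the controls and 460, 426 and 554 FPKM after PM2.5. Rack1, a scaffold on the small subunit, had 147, 194 and 155 FPKM in the controls and 159, 173 and 179 FPKM after PM2.5. Neither passed an unadjusted p under 0.05 in either fit.

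The remaining abundant or extreme members showed the same dependence on single libraries. Rpl8 had 534, 1489 and 556 FPKM in the controls and 649, 600 and 530 FPKM after PM2.5. Rpl14 had 231, 1923 and 249 FPKM in the controls and 207, 201 and 326 FPKM after PM2.5, so that its log2 fold change was -1.01 ± 0.86 (SE) with all 6 libraries and -0.01 ± 0.24 (SE) without control replicate 2. Rps29, a short zinc finger protein, had 99.8, 782 and 109 FPKM in the controls and 103, 90.4 and 113 FPKM after PM2.5. Rps12-ps3, annotated as protein coding although named a pseudogene, had 491, 302 and 496 FPKM in the controls and 194, 221 and 644 FPKM after PM2.5. Rps27rt, a retrogene of Rps27, had 387, 320 and 150 FPKM in the controls and 133, 138 and 348 FPKM after PM2.5. In all 5 genes the groups overlapped over the 6 libraries.

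Sequences around the transcription start are shown for a few members described above, picked after their values were seen, with higher levels (Rpl28, Rpl35, Rpl38 and Rps24) or lower levels (Rpl39 and Rps27) in PM2.5 replicates 1 and 2 than in control replicates 1 and 3, and for the pair Rps27 and Rps27rt, whose reads can be shared. They run from 15 bases before to 15 bases after the RefSeq start on the mouse build GRCm38.p6. They read 5′ to 3′ on the strand of the gene, with the longest run of pyrimidines in capitals. Rps24 had 2 RefSeq windows, of which 1 is shown. Rpl28 lies on the plus strand at chr7:4792950-4792979, Rpl35 on the minus strand at chr2:39005117-39005146, Rpl38 on the plus strand at chr11:114668565-114668594 and Rps24 on the plus strand at chr14:24490663-24490692. Rpl39 lies on the minus strand at chrX:37085208-37085237, Rps27 on the minus strand at chr3:90213634-90213663 and Rps27rt on the minus strand at chr9:114982725-114982754.
Rpl28: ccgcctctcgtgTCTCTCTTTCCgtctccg
Rpl35: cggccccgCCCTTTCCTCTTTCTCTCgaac
Rpl38: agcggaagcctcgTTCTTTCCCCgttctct
Rps24: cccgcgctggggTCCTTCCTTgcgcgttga
Rpl39: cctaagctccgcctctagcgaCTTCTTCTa
Rps27: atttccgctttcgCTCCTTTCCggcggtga
Rps27rt: agaacttaTCCCTTgctttccggcggtgac

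The run spanned the annotated start in Rpl28, Rpl35, Rpl38, Rps24 and Rps27, with lengths of 9 to 18 bases, while in Rpl39 it began 6 bases after it and in Rps27rt it ended before it. Rps27rt holds another run of the same 6 bases' length, not in capitals, that began at the annotated start with a C. Rps27 and Rps27rt shared a run of 38 bases that began within 1 base of both start sites. Rpl35, at 18 pyrimidines, and Rpl39, at 8, were members with opposite orders of PM2.5 replicates 1 and 2 against control replicates 1 and 3. Rps24 and Rps27, both at 9 pyrimidines, also had opposite orders. Windows were matched for 66 of the 92 members, in 78 windows of the 32851 in the table. A C with 4 more pyrimidines began within 5 bases of the start in 41.0% of the members' windows and in 18.3% of all windows. The letters CTTTC on the gene's strand, within 50 bases of the start, were found in 48.7% of the members' windows and 12.8% of all windows. The letters CCGGAAG, of the ETS family, were found on either strand in 34.6% against 8.86% of the 300-base windows. TATAAA was found in the 50 bases before the start in 1.28% against 2.63%.

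Other genes of the pathway were counted from lists. Of 34 ribosome biogenesis genes, 0 were called in either fit, and without control replicate 2, 21 had a higher level and 0 a lower level at an unadjusted p under 0.05, against 8.32% and 7.67% of all genes tested. Their median log2 fold change was 0.39 in that fit and 0.30 with all 6 libraries, against -0.01 and 0.02 over all genes tested. With all 6 libraries 5 had a higher level at an unadjusted p under 0.05, against 1.92% of all genes. Pes1, a nucleolar factor of large subunit assembly, had 25.5, 46.6 and 24.98 FPKM in the controls and 44.9, 45.9 and 37.4 FPKM after PM2.5, with a limma adjusted p of 0.0831 without control replicate 2. Nob1, the nuclease that trims the small subunit RNA, had 8.07, 6.30 and 8.58 FPKM in the controls and 14.1, 13.4 and 12.1 FPKM after PM2.5. Its groups did not overlap over all 6 libraries, with a log2 fold change of 0.72 ± 0.20 (SE) and a limma adjusted p of 0.786 in that fit.

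Of 15 elongation factors and other mRNAs with a TOP motif, 7 had a higher level and 0 a lower level at an unadjusted p under 0.05 without control replicate 2, where these shares were 8.32% and 7.67% over all genes tested, and 0 did in either direction with all 6 libraries. Their median log2 fold change was 0.18 in the former fit and 0.27 in the latter. Eef1g, a subunit of the elongation factor that reloads eEF1A, had 157, 225 and 159 FPKM in the controls and 212, 213 and 232 FPKM after PM2.5. Pabpc1, the poly(A) binding protein, had 138, 42.3 and 135 FPKM in the controls and 179, 192 and 186 FPKM after PM2.5, all above the controls. Of 19 genes tested in the list of mTORC1, LARP1 and MYC, Eif4ebp1 and Myc had a higher level and Sp1 and Hinfp a lower one at an unadjusted p under 0.05 without control replicate 2, against the same 8.32% and 7.67% of all genes, and the list's median log2 fold change was -0.07. Myc had 12.2, 25.7 and 16.2 FPKM in the controls and 29.1, 27.2 and 18.9 FPKM after PM2.5, with a limma adjusted p of 0.222 in that fit.

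Dkc1, the pseudouridine synthase of box H/ACA particles, had 18.1, 9.47 and 17.3 FPKM in the controls and 25.5, 25.8 and 24.9 FPKM after PM2.5, all above the controls, with a limma adjusted p of 0.0844 without control replicate 2. Rrp12, a factor of subunit export, had 6.6, 3.48 and 6.77 FPKM in the controls and 13.4, 14.2 and 9.23 FPKM after PM2.5, again with no overlap. Rheb, the GTPase that activates mTORC1, had 18.8, 48.8 and 19.8 FPKM in the controls and 13.8, 15.3 and 19.6 FPKM after PM2.5.

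**Figure D4:**
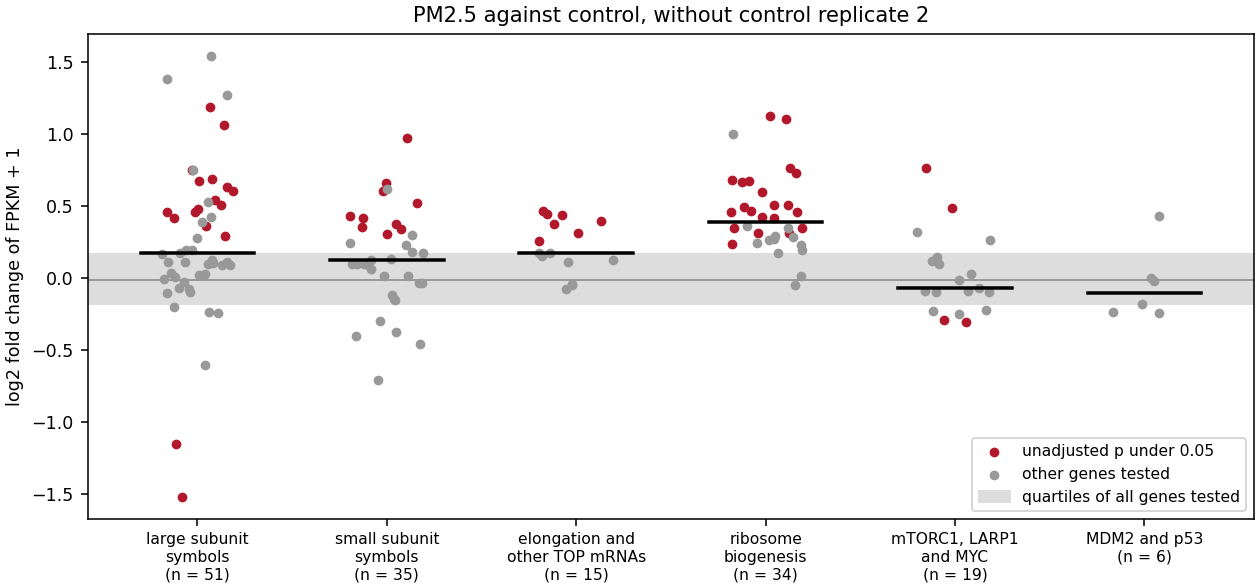
Log2 fold change of FPKM + 1 without control replicate 2, PM2.5 against control, for the members by subunit and for 4 gene lists (1 point a gene, red at an unadjusted p under 0.05, bars for medians, band for the quartiles of all genes tested). The medians are 0.17 and 0.13 for the large and small subunit, 0.18 for the TOP mRNAs and 0.39 for ribosome biogenesis, and no gene shown passed the adjusted threshold.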

How the data were processed

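RNA sequencing was analysed in 6 libraries of GC-2spd cells, 3 of the control group and 3 of the PM2.5 group, grouped by the sample labels. The authors deposited FPKM per gene. The submitters' processing notes name HISAT2 2.0.5, featureCounts 1.5.0-p3 and the build mm9, while exon lengths of GENCODE M21 on GRCm38 turned 98.1% to 98.4% of the values under 50 reads into whole reads (within 0.05 of a read), so these lengths were used. The deposited FPKM were already scaled between libraries by size factors.

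A mean of 1 FPKM or more was required, and log fold changes were fitted with limma 3.58.1 with its trend and robust settings (statmod 1.5.0, R 4.3.3) on log2(FPKM + 1), with Benjamini-Hochberg adjustment over all genes tested. A pseudocount of 1 understates the fold change of low genes. Of the 92 members, 6 were under this filter in both fits. The tables were handled with numpy 2.4.6 and pandas 2.3.3, and figures drawn with matplotlib 3.10.9.

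In data simulated from mean levels of the libraries without control replicate 2, the adjusted p-value let through more unchanged genes than its nominal share in both designs. The excess was larger without control replicate 2, nearly all of it genes of low FPKM, while the unadjusted p-value held its rate. Every simulated gene had the same setting for its spread, and no simulated library stood apart. The simulation thus does not test the p-values with libraries as unlike as these. The limit first set for false calls was missed, and was replaced after its result was seen.

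The members, the lists and the tests were chosen with earlier results of these data known. Members named are the 10 with the highest mean FPKM, the 5 with the largest and the 5 with the smallest log2 fold change in each fit, the paralogues with their parent genes, and members picked by role. From the other lists, the 2 genes with the smallest p in a fit were named where values are given. Rps24, Rpl9, Rpl24, Rps10, Rpl37a, Rps3a1, Rpl36-ps4 and Rpl9-ps1 among the members, and Sp1 and Hinfp outside them, were named after their values were seen. Promoter windows are from RefSeq. Results for some genes are not reported here.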

Additional observations from a re-analysis of the deposited data

How the results depend on the processing

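With all 6 libraries, 0 members were called under every alternative run. The count at an unadjusted p under 0.05 was 1 (3.8% of all genes), and it was 0 without -ps symbols. It was 2 after quantile normalization and 2 after a correction for GC content and length. When 1 library was left out it was 1 to 27, the highest without control replicate 2 (16% of all genes) and 3 without PM2.5 replicate 3. For the other runs the shares over all genes are not given, so their counts cannot be set against them. The median of -0.34 was -0.02 after quantile normalization and -0.21 with voom or total reads scaling, and -0.65 to 0.15 when 1 library was left out. Without control replicate 2, the count of called members was 0. It was 1 after quantile normalization (Rpl36a-ps1), 2 with voom (Rps24 and Rpl23, against 1.36% of all genes) and 11 after the GC and length correction (7.55%). It was 0 without PM2.5 replicate 1 or 2, and 52 without PM2.5 replicate 3, where 48.1% of all genes were called. The count at an unadjusted p under 0.05 was 27, and 8 to 56 when a further library was left out, with 8 without control replicate 1, 12 without control replicate 3 and 14 without PM2.5 replicate 2, which leave 1 control or 2 PM2.5 libraries. The lone control is then assumed to vary like the others. The median log2 fold change of 0.15 was 0.0874 after quantile normalization and 0.0858 after the GC and length correction, and 0.12 to 0.20 when a further library was left out. The cause of these shifts was not tested. With the replicate number as a block and without control replicate 2, 1 member was called (Rpl36a-ps1, against 1.16% of all genes). At an unadjusted p under 0.05 there were 12 (7.38% of all genes). With the block and the GC correction together 0 were called and 16 passed that threshold, at a median of 0.0924. The shares over all genes in this last fit are not given. The deviations of same-numbered libraries had correlations of -0.28, 0.18 and 0.25, and control replicate 1 correlated best with PM2.5 replicate 3. Control replicates 1 and 3 gave similar values against PM2.5 replicate 1 (-0.28 and -0.25), replicate 2 (-0.19 and -0.16) and replicate 3 (0.29 and 0.25). This measure thus cannot tell whether same-numbered libraries were paired. Depth limits Rpl36a-ps1, which had 3 and 2 reads in control replicates 1 and 3. Pseudocounts, filters, scalings, block, voom and quantile normalization do not apply to the shares of FPKM. With all 6 libraries the mean share after PM2.5 minus that of the controls was -0.839 percentage points. Among genes outside the mitochondrial chromosome it was -2.11 points. Without control replicate 2 these differences were 0.686 and 0.745 points. The sign of the log2 fold change stayed the same under every alternative for 16 of 47 named members with all 6 libraries and for 30 without control replicate 2. The GC and length correction, the runs with pseudogene reads added or without -ps symbols, and leaving out control replicate 2 and PM2.5 replicate 3 together were chosen after seeing the data.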
